A study of Mus musculus with 12 samples.

Results

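The miR-181 family on these arrays consisted of 4 entries, mmu-miR-181a, mmu-miR-181b, mmu-miR-181c and mmu-miR-181d, of 650 miRNA entries in all. They were taken by name, without the star strands, and the family was chosen because mmu-miR-181b and mmu-miR-181d were seen to be high together on some of these arrays. Their joint changes from array to array are therefore given as a description, with no test. The arrays measured liver RNA of adult mice under a daily schedule with lights on for 12 h and off for 12 h, food and water being always present. Livers were taken every 4 h over 2 days, from 18 h (ZT18) to 62 h (ZT62) after a lights-on (zeitgeber time, ZT). At each time the RNA of 2 livers was combined and put on 1 one-colour array, which gave 6 arrays in the dark and 6 in the light. Each of 6 clock times (2, 6, 10, 14, 18 and 22 h after lights on) had 2 arrays taken 24 h apart, the later called cycle 2 and the earlier cycle 1. All mice shared the same lighting and feeding, the labels name no genotype or treatment, and the strain and sex are not given in the sources used here. With 1 pool on each array, p-values rest on the spread between arrays, which differences between pools and between arrays both enter. In this RNA, fewer cells of a type cannot be told apart from less of a miRNA per cell.

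MicroRNAs are short RNAs that pair through a seed near their 5′ end with sites in messenger RNAs and lower their translation or stability. The miR-181 family is known best from blood and immune cells, where miR-181a tunes the sensitivity of the T-cell receptor during thymic development. In endothelium miR-181b restrains NF-κB signalling, and in liver the family has been studied in cancer cells with stem-cell features and in fibrosis. The members come from clusters that each hold a pair of hairpins.

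The mature sequences are given because all 4 share 1 seed while only some gave a signal. They are RefSeq's 5p strands on the GRCm38.p6 table, written 5′ to 3′, with the seed (bases 2 to 8) in capitals. All 4 array entries were matched to this table by name, taking the 5p strand as the one without a star.
mmu-miR-181a: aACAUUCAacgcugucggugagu
mmu-miR-181b: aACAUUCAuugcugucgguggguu
mmu-miR-181c: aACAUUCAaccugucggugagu
mmu-miR-181d: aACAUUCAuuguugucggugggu
Among 1679 mature mouse miRNAs in the table, these 4 were the only ones with that seed. Counted from the 5′ end of the first-named miRNA, mmu-miR-181b and mmu-miR-181d differed by the substitution C12U, and mmu-miR-181b had 1 more base at its 3′ end, which left 22 identical positions. Between mmu-miR-181a and mmu-miR-181b the substitutions were A9U, C10U and A21G. mmu-miR-181c, with 22 bases, matched mmu-miR-181a at all 22, with 1 base of mmu-miR-181a missing from it. Outside the seed the family thus formed 2 pairs, a with c and b with d.

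The pairs by sequence were not the pairs by locus. On GRCm38.p6, Mir181a-1 and Mir181b-1 lie beside each other on chromosome 1, plus strand, with mature starts 182 bases apart. Mir181a-2 and Mir181b-2 lie on chromosome 2, plus strand, 1104 bases apart and within the spans of Nr6a1, a nuclear receptor gene, and Nr6a1os, a transcript named as its opposite strand. Mir181c and Mir181d lie on chromosome 8, minus strand, 165 bases apart, with Nanos3 as the nearest protein-coding gene. None of the other loci overlapped a gene in the table, and the table does not tell exon from intron. The precursors of the 2 detected members are shown with the mature strand in capitals.
Mir181b-1: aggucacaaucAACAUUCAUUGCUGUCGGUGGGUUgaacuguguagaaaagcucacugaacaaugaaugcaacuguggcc
Mir181b-2: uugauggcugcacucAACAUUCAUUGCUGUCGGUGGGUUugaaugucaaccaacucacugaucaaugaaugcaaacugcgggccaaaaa
Mir181d: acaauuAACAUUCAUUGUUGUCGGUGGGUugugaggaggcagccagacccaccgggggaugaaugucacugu
They lie at chr1:137966639-137966718 (plus), chr2:38853830-38853918 (plus) and chr8:84178716-84178787 (minus). Both Mir181b hairpins give the same mature strand, so the arrays cannot tell which of them the mmu-miR-181b signal came from.

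Of the arrays as a whole, between 16.5% and 19.6% of spots lay well above background, the software detected 132 to 162 entries per array, and the factors that scaled the arrays to each other lay between 0.865 and 1.10. The liver label matched its markers: miR-122, the most specific hepatocyte miRNA, ranged between 29458 and 33127 scaled intensity units. miR-192, miR-194 and miR-148a were also detected on all 12 arrays, with SDs of 0.060, 0.053 and 0.057 log2 units. The 5 neuronal and 4 striated muscle markers were detected on 0 arrays.

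mmu-miR-181b and mmu-miR-181d were measurable in liver, and mmu-miR-181a and mmu-miR-181c were not well above background. Each member had 2 probes with 10 spots per array. For mmu-miR-181b, 179 of 228 spots kept (78.5%) lay well above background, and the entry was detected on all 12 arrays. For mmu-miR-181d the number was 163 of 228 spots (71.5%), with detection on 10 arrays. For mmu-miR-181a it was 0 of 223 spots, with array values between 6.14 and 13.8 scaled units on its brighter probe. For mmu-miR-181c it was also 0 of 223 spots, with values between -2.68 and 4.59. Both entries lay under the floor of 22.2 units on every array, the floor being the typical lowest signal of a detected probe, so they have only a bound. The star strands mmu-miR-181a-1* and mmu-miR-181a-2*, the other products of the Mir181a hairpins, had 0 spots well above background. Thus 2 of 4 members passed the filter for testing (detection on at least 6 arrays), and 139 of the 650 entries did. Intensities depend on the probe, so the level of 1 member is not set against that of another, and a low signal does not show that a miRNA is absent.

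**Figure D1:**
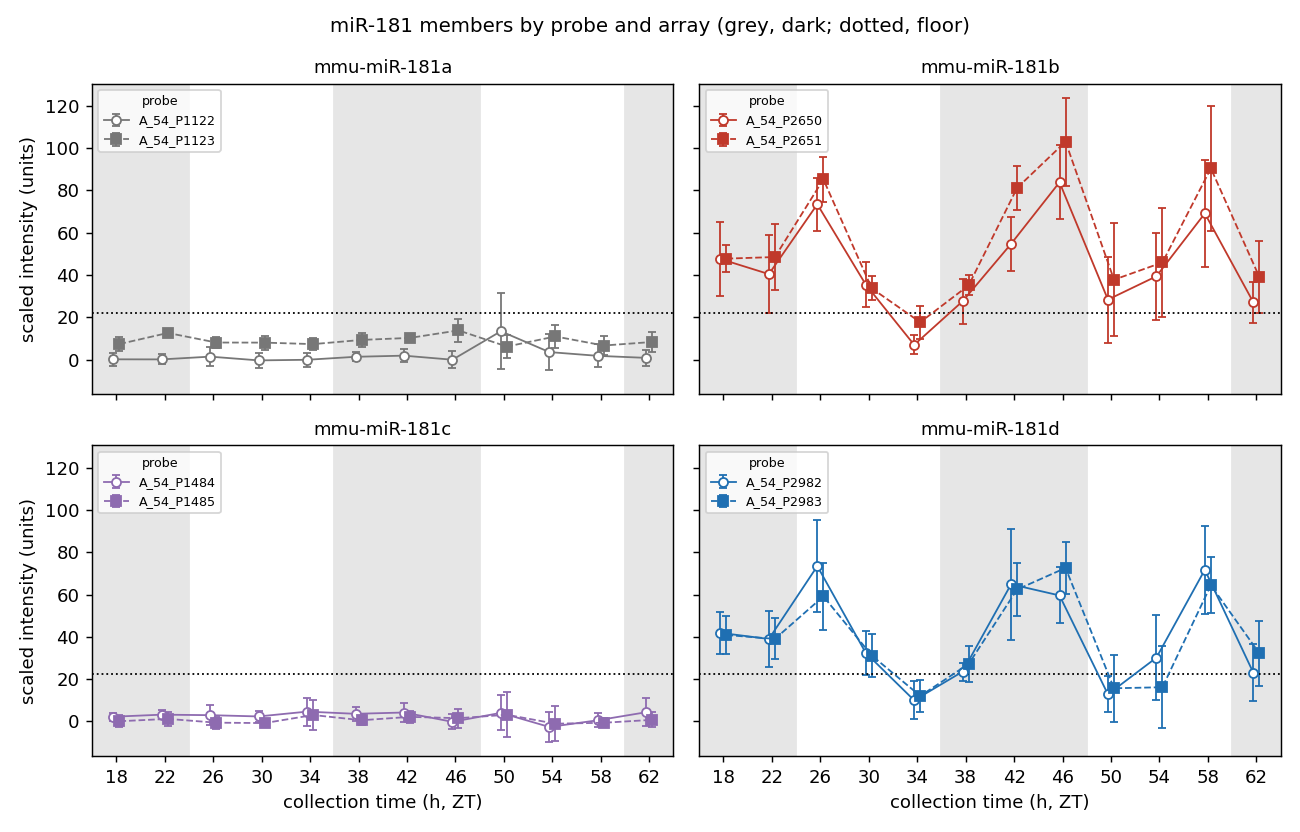
Scaled intensity (linear, units of the scanner) of each miR-181 member against collection time in h, a line for each of its 2 probes, with error bars giving the SD over up to 10 spots of 1 array; grey marks the dark and the dotted line the floor of 22.2 units. mmu-miR-181b and mmu-miR-181d were high at ZT26, ZT42, ZT46 and ZT58 on both probes, while mmu-miR-181a and mmu-miR-181c lay under the floor throughout.

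mmu-miR-181b was high on 4 arrays and low on 1. On its brighter probe it had 47.7 scaled units at ZT18, 48.5 at ZT22, 85.3 at ZT26, 33.6 at ZT30, 17.6 at ZT34 and 35.1 at ZT38. From ZT42 on it had 81.2 at ZT42, 103.1 at ZT46, 37.8 at ZT50, 45.9 at ZT54, 90.5 at ZT58 and 39.1 at ZT62. The 4 arrays above 80 units were ZT26 and ZT58, both in the light, and ZT42 and ZT46, both in the dark. At ZT34 the value lay under the floor, and 1 of 9 spots of this probe was well above background. The value per array is limited by the spread over spots: at ZT46 the 9 spots had an SD of 20.8 units, and at ZT34 an SD of 7.79. The scanner software's own summary of the miRNA ranged between 11.4 and 112.9.

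mmu-miR-181d was high on the same 4 arrays. On its brighter probe it had 41.9 scaled units at ZT18, 39.0 at ZT22, 73.4 at ZT26, 32.4 at ZT30, 9.92 at ZT34 and 23.5 at ZT38. Later it had 64.8 at ZT42, 59.6 at ZT46, 12.8 at ZT50, 30.1 at ZT54, 71.7 at ZT58 and 23.1 at ZT62. ZT34 and ZT50 lay under the floor, and its 4 highest arrays were ZT26, ZT58, ZT42 and ZT46. At ZT50, 0 of 8 spots kept on this probe were well above background, against 10 of 10 at ZT58. At ZT54 it was 4 of 10, and the other probe lay under the floor there, with 16.1 units. The 4 arrays of the second slide (ZT50 to ZT62) had spot SDs between 8.51 and 20.7 units on the brighter probe. Those of the first slide lay between 4.24 (ZT38) and 26.2 (ZT42).

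Both probes of a member gave like profiles. Over the 12 arrays Pearson's r was 0.955 between the probes of mmu-miR-181b and 0.932 between those of mmu-miR-181d. The spread between arrays exceeded that between spots of an array on each of the 4 probes: the SD between arrays lay between 20.8 and 27.2 units, and the pooled SD over spots between 12.9 and 17.8. The probes of a member share the array, its labelling and its RNA pool, so these values speak for the signal on an array and not for a change between mice. On the log2 scale the SD over arrays was 0.69 for mmu-miR-181b and 0.68 for mmu-miR-181d, the first and the second highest of 139 tested entries, whose median was 0.10. That rank, and the spread of the probes between arrays, belong to the property by which the family was chosen.

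Between the members, mmu-miR-181b and mmu-miR-181d had an r of 0.916 (Spearman's rho 0.844) over 12 arrays. Without ZT34 and ZT46, the arrays farthest from the median of mmu-miR-181b, r was 0.939. Without the arrays where mmu-miR-181d was at the floor it was 0.921, and among the 8 arrays of slide 1 it was 0.944. The entries share array, depth and scaling, and with 1 substitution between their mature strands it was not tested whether each probe reads 1 member alone. The array's scaling factor had an r of 0.232 with mmu-miR-181b and 0.226 with mmu-miR-181d, and the share of spots well above background 0.356 and 0.371; their part in the joint pattern was not tested.

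**Figure D2:**
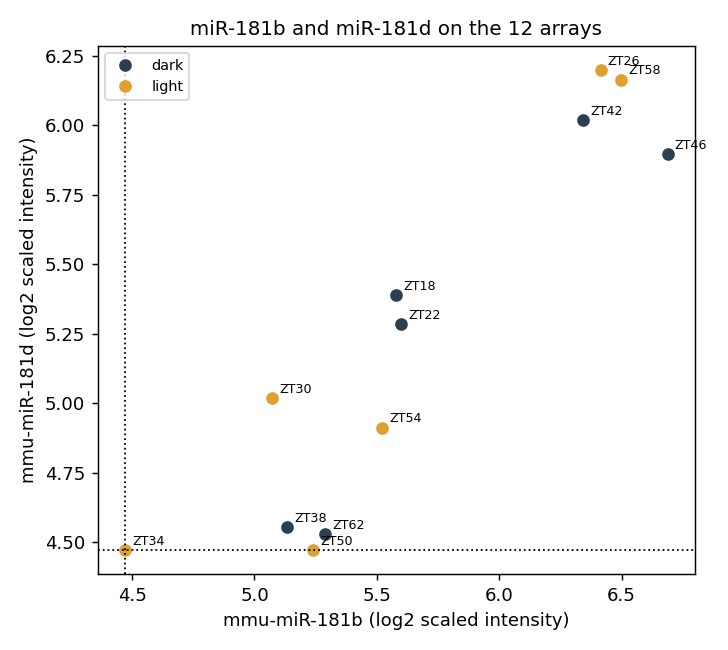
Log2 scaled intensity of mmu-miR-181d against mmu-miR-181b, a point for each of the 12 arrays, labelled by collection time and coloured by lights; dotted lines mark the floor. ZT26, ZT42, ZT46 and ZT58 stand together at the top right, 2 of them dark and 2 light, and r over the 12 arrays was 0.916.

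The first question for liver collected around the clock was a 24-h rhythm, and neither member passed the test for one. The fitted cosine of mmu-miR-181b gave a 1.82-fold ratio of peak to trough and a maximum 21.9 h after lights on. That of mmu-miR-181d gave a 1.62-fold ratio and a maximum at 22.2 h. The adjusted p was 0.957 for both in limma's moderated F test with Benjamini-Hochberg adjustment over 139 entries. Under this test 0% of all tested entries were called, and 0 of the 2 members; 5 of 139 entries and 0 members had an unadjusted p under 0.05, and the smallest adjusted p was 0.849. No upper limit is given for either fold, since 1 array of mmu-miR-181b and 2 of mmu-miR-181d were set to the floor; the intervals of the comparisons below rest on the same floored values. The size of the fitted rhythm hung on single arrays. On the log2 scale the peak-to-trough difference of mmu-miR-181b was 0.87, against 0.53 without ZT34 and 1.43 without ZT58 (adjusted p of 0.903 and 0.724, limma). That of mmu-miR-181d was 0.69, against 1.26 without ZT58 (adjusted p of 0.953). Within slide 1 the difference was 1.73 for mmu-miR-181b and 1.44 for mmu-miR-181d, each with an adjusted p of 0.983 in limma. The unadjusted p of mmu-miR-181b was under 0.05 without ZT58, and that of both members within slide 1 (limma). How many of all tested entries had such a p in these subsets was not counted, so nothing particular to the members is read from it.

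Dark and light arrays overlapped for both members. mmu-miR-181b had a lowest value of 35.1 scaled units, a median of 48.1 and a highest of 103.1 on the 6 dark arrays, against 22.2 (the floor), 41.9 and 90.5 on the 6 light arrays. Its log2 mean was 5.77 ± 0.61 in the dark and 5.54 ± 0.79 in the light (SD, n = 6 each). The difference was 0.24 log2 units, dark minus light, with a 95% interval of -0.63 to 1.10 and an adjusted p of 0.906 (limma). Within slide 1 the difference was 0.55 (adjusted p of 1, limma), and leaving out 1 array gave between 0.02 (without ZT34) and 0.43 (without ZT58).

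mmu-miR-181d had 23.1, 40.4 and 64.8 scaled units as lowest, median and highest on the dark arrays, against 22.2 (the floor), 31.2 and 73.4 on the light arrays. Its log2 mean was 5.28 ± 0.64 in the dark and 5.21 ± 0.79 in the light (SD, n = 6 each), a difference of 0.07 with an interval of -0.80 to 0.95 and an adjusted p of 1 (limma). For each member 4 of 6 dark arrays lay above the light mean. Of all tested entries 0% were called in this comparison, with 11 of 139 entries and 0 members at an unadjusted p under 0.05 in limma. Without ZT30, 2 entries were called and 0 members. The sign of the small difference of mmu-miR-181d turned when ZT34, ZT42, ZT46 or ZT50 was left out, with -0.07 without ZT34, -0.08 without ZT42, -0.05 without ZT46 and -0.07 without ZT50. Within slide 1 it was 0.20, with an adjusted p of 1 (limma).

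Arrays taken 24 h apart at the same clock time often disagreed. At 10 h after lights on, mmu-miR-181b had 90.5 scaled units in cycle 2 (ZT58), against a value under the floor in cycle 1 (ZT34), and mmu-miR-181d had 71.7 against a value under the floor. At 2 h the order was the opposite: mmu-miR-181b had 37.8 in cycle 2 (ZT50) and 85.3 in cycle 1 (ZT26). mmu-miR-181d at 2 h was under the floor in cycle 2 and had 73.4 in cycle 1. These 2 clock times, both in the light, each held 1 of the 4 high arrays of both members beside a lower array taken 24 h apart.

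At the dark clock times the cycles of mmu-miR-181b differed by at most 1.09 log2 units. At 18 h mmu-miR-181b had 81.2 scaled units in cycle 2 and 47.7 in cycle 1, and at 22 h 103.1 and 48.5. At 14 h both cycles were low, with 39.1 in cycle 2 and 35.1 in cycle 1 for mmu-miR-181b, and 23.1 and 23.5 for mmu-miR-181d. mmu-miR-181d at 18 h had 64.8 in cycle 2 and 41.9 in cycle 1, and at 22 h 59.6 and 39.0. At 6 h mmu-miR-181b had 45.9 in cycle 2 and 33.6 in cycle 1, and mmu-miR-181d 30.1 and 32.4. Whether pairs differ more in the light than in the dark was not tested. Every light pair, and the pair at 14 h, set an array of slide 1 against an array of slide 2. The pairs at 18 h and 22 h lay within slide 1, so lights and slide are largely confounded in these differences.

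**Figure D3:**
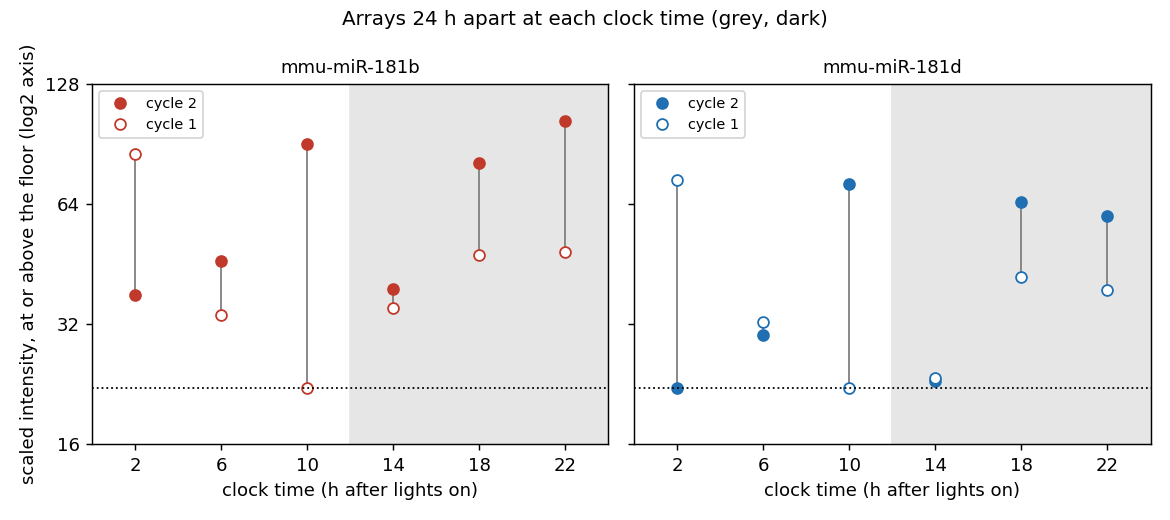
Scaled intensity (log2 axis, values under the floor drawn at the floor, dotted) of mmu-miR-181b and mmu-miR-181d against clock time in h after lights on, cycle 2 as filled and cycle 1 as open points joined by a line; grey marks the dark. The pairs at 2 h and 10 h span most of the range and run in opposite directions, while those at 14 h nearly coincide.

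Neither the clock time nor the cycle was called. Over 6 clock times the highest mean stood over the lowest by 1.91-fold for mmu-miR-181b, with the highest at 22 h (log2 mean 6.14 ± 0.77, SD, n = 2) and the lowest at 14 h (5.21 ± 0.11). For mmu-miR-181d it was 2.24-fold, with the highest at 18 h (5.70 ± 0.45) and the lowest at 14 h (4.54 ± 0.02, beside the floor). In limma's F test over clock times the adjusted p was 0.901 and 0.879, 0% of the tested entries were called, and 6 entries and 0 members had an unadjusted p under 0.05. Leaving out 1 array raised the number of entries called to 8 without ZT26, 2 without ZT46 and 1 without ZT54 or ZT58, and 0 members were among them. From low to high the clock times of mmu-miR-181b ran 14, 6, 10, 2, 18 and 22 h, and no neighbours in that order differed beyond the spread of their pairs. Those of mmu-miR-181d ran 14, 6, 10, 2, 22 and 18 h, and of the neighbours the values at 14 h and 6 h did not overlap (23.1 and 23.5 against 30.1 and 32.4 scaled units). These values are from the brighter probe. On the other probe of mmu-miR-181d they overlapped, with 27.1 (ZT38) and 32.2 (ZT62) at 14 h against 31.1 (ZT30) and 16.1 (ZT54) at 6 h. With n = 2 at each clock time, the 14 h values beside the floor and no gap on the other probe, nothing is concluded from the gap. How many of all tested entries show such a gap was not counted.

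mmu-miR-181b was higher in cycle 2 at 5 of 6 clock times and mmu-miR-181d at 3 of 6. The log2 mean of mmu-miR-181b was 5.93 ± 0.65 (SD, n = 6) in cycle 2, against 5.38 ± 0.65 (SD, n = 6) in cycle 1, a difference of 0.55 (95% interval -0.43 to 1.54) with an adjusted p of 0.866 in limma. For mmu-miR-181d it was 5.33 ± 0.78 in cycle 2 and 5.15 ± 0.63 in cycle 1, a difference of 0.18 (-0.87 to 1.23) with an adjusted p of 0.907 in limma. Here too 0% of tested entries were called, and 5 entries and 0 members had an unadjusted p under 0.05. The slide moves with the cycle, since slide 2 held 4 of the 6 arrays of cycle 2 and none of cycle 1. Only the 18 h and 22 h clock times had both cycles on slide 1. A cycle difference that takes account of the slide therefore rests on those pairs alone. The fit with a slide block and the fit within slide 1 are thus not separate checks, and within slide 1 the other clock times had no repeat. With the slide as a block, and likewise within slide 1 alone, the cycle difference was 0.93 for mmu-miR-181b and 0.62 for mmu-miR-181d. The adjusted p in limma was 1 for both with the block, and 0.494 and 0.318 within slide 1, where both had an unadjusted p under 0.05. The difference of mmu-miR-181b was 0.26 without ZT34 or ZT58, 0.90 without ZT26 or ZT50 (an unadjusted p under 0.05, adjusted p of at least 0.687 in limma), and 0.05 with arrays scaled on all probes. That of mmu-miR-181d was -0.12 without ZT34 or ZT58, 0.56 without ZT26 or ZT50, 0.09 without any one array of the 18 h or 22 h pairs, and -0.18 with arrays scaled on all probes. For the cycle difference within slide 1, or without ZT26 or ZT50, entries with an unadjusted p under 0.05 were not counted over all those tested. The change of the dark minus light difference between cycles (cycle 2 minus cycle 1) was 0.24 log2 units for mmu-miR-181b and 0.45 for mmu-miR-181d, with adjusted p of 0.953 and 0.951 (limma), 0% of entries called, and 3 entries and 0 members at an unadjusted p under 0.05.

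The entries most like the members over the 12 arrays were other dim ones. Among 118 other tested entries that were at the floor on no more than 3 arrays, those with the highest r with mmu-miR-181b after mmu-miR-181d were mmu-miR-468 (0.895), mmu-miR-99b* (0.780), mmu-miR-20b (0.725) and the herpesvirus entry mghv-miR-M1-2 (0.452). With mmu-miR-181d they were mmu-miR-181b, mmu-miR-468 (0.855), mmu-miR-20b (0.692), mmu-miR-99b* (0.637) and mghv-miR-M1-2 (0.524). mghv-miR-M1-2 belongs to a virus of mice, and nothing in the labels says that these mice carried it. Next for mmu-miR-181b came the bright miR-122, at 0.449. These r are picked from 118 and carry no test.

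The size of the changes differed among those entries. mmu-miR-468 had its highest values at ZT58 (57.9 scaled units), ZT26 (53.9), ZT46 (49.3) and ZT42 (40.1), the same 4 arrays as the members, and lay under the floor at ZT34, ZT38 and ZT62. mmu-miR-99b*, the other strand of a hairpin of the miR-99b and let-7e cluster, was highest at ZT46 (74.2), ZT58 (48.6) and ZT26 (43.8), but had 24.6 at ZT42. mmu-miR-20b, of the miR-17 family, moved little, between 59.5 and 73.1 units, with its highest at ZT58.

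**Figure D4:**
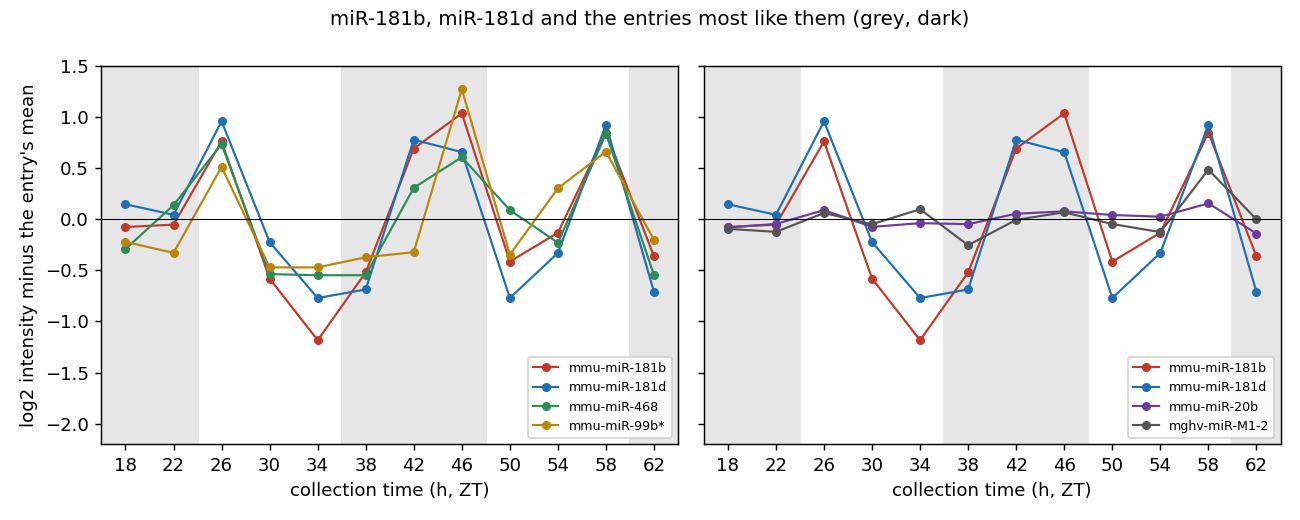
Log2 intensity minus the entry's mean over the 12 arrays against collection time in h for mmu-miR-181b and mmu-miR-181d, with mmu-miR-468 and mmu-miR-99b* on the left and mmu-miR-20b and mghv-miR-M1-2 on the right; values under the floor were set to it and grey marks the dark. mmu-miR-468 was high at ZT26, ZT42, ZT46 and ZT58 with the members, while mmu-miR-20b stayed close to its mean.

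The Mir23a, Mir27a and Mir24-2 cluster lies near Mir181c and Mir181d on chromosome 8. Its products mmu-miR-23a and mmu-miR-27a were detected on 12 arrays, with SDs of 0.07 and 0.10 log2 units and an r with mmu-miR-181d of 0.265 and 0.289. With mmu-miR-181b, which has no locus on that chromosome, r was 0.234 and 0.201. Of markers of cells that could carry the family, 5 of 8 leukocyte entries were tested, and miR-150, miR-155 and miR-146b were detected on 0 arrays. The summed level of the 5 tested leukocyte entries lay between 498.2 and 588.4 units in the dark and between 496.9 and 620.8 in the light. Its r was -0.61 with mmu-miR-181b and -0.56 with mmu-miR-181d. Both endothelial entries (miR-126-3p and miR-126-5p) were tested, with summed levels of 1344 to 1480 in the dark and 1346 to 1484 in the light and an r of 0.446 and 0.329. The sum of the 7 hepatocyte entries had an r of 0.421 with mmu-miR-181b and 0.460 with mmu-miR-181d. Each sum adds linear intensities, so its brightest entry weighs most. For hepatocytes this was miR-122, whose own r was 0.449 with mmu-miR-181b and 0.462 with mmu-miR-181d. For endothelium it was miR-126-3p, with a median of 1340 units against 88.0 for miR-126-5p. The part of these cells in the members' values was not tested.

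Among 20 miRNAs linked to the clock in earlier work, 12 were tested and 0 passed any of the 4 tests of rhythm, lights, clock time and cycle (0% of all entries called, limma). In the dark 2 were higher and 10 lower, with a median difference of -0.02 log2 units, against 47 higher and 92 lower of 139 tested entries with a median of -0.02. Both counts include miR-219, which was at the floor on all 12 arrays. It could pass no test, and the direction counted for it has no meaning. Their median fitted peak-to-trough fold was 1.05, against 1.08 over all tested entries. miR-192 and miR-194, which come from shared hairpin clusters, had folds of 1.04 and 1.04, miR-122 had 1.03, and miR-142-3p of blood cells had 1.12.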

How the data were processed

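The deposited spot intensities are linear and, per the file headers, were corrected for background and spatial trend by Feature Extraction 10.7.3.1 (the submitters' processing notes name 9.5.3.1). The series value table held the same values (largest difference 0). Control spots and outlier spots (3.82% to 6.94% of an array) were left out, and spots of a probe averaged. Arrays were brought to a common 75th percentile of the 157 probes detected on every array. The floor of 22.2 was set, log2 taken, and the brightest probe of an entry used. Entries with detection on 6 or more arrays (139) entered the tests, run with limma 3.58.1 (intensity trend) in R 4.3.3, files being read with data.table (version 1.17.8), and adjusted by Benjamini-Hochberg at 0.05. The tests were checked on simulated data.

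Named were the 4 members, the family's star strands, the 5 entries with the highest r with each member, liver markers, and list members never at the floor, at most 4 a list; undetected markers, mmu-miR-23a and mmu-miR-27a were named after their values were seen. The members and lists were chosen with earlier results of these data known. The normexp alternative used the median spot signal, as no mean signal column was found. The number of arrays limits the precision. Alternatives changed scaling, background, floor, filter, probes, outlier spots, variance, slide and arrays.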

Additional observations from a re-analysis of the deposited data

How the results depend on the processing

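The count of members past an adjusted p of 0.05 was 0 in limma for all 5 tests under every alternative run (25 or 26 each, the alternatives of the interaction having been added after seeing the data), and 0 of 204 member values passed. Over all 139 entries the count for clock time reached 8 without ZT26 and 3 on slide 1 alone, and for the 24-h rhythm 2 with normexp. Of the 204 values, 10 changed sign. The dark minus light difference became -0.327 for mmu-miR-181b and -0.313 for mmu-miR-181d with normexp, and -0.045 for mmu-miR-181d with the slide as a block. Leaving out 1 array gave between -0.076 and 0.271 for mmu-miR-181d in the dark, and between -0.123 and 0.561 for its cycle difference, which was -0.182 when scaled on all probes. The cause was not tested. The r of mmu-miR-181b and mmu-miR-181d lay between 0.900 and 0.988, the highest with normexp, which also gave 0.990 and 0.994 between the probes of each. With detection on all 12 arrays required, mmu-miR-181d was not tested. Without the filter, entries at the floor on all arrays could not be fitted and were dropped. The labels give no replicate numbers; the cycle test had clock time in the model and so paired the arrays 24 h apart, which is why leaving out either array of a pair gave 1 value. The signal over background limits all values, the highest being 103.1 units against a floor of 22.2.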

Other observations

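On 1 probe of mmu-miR-181a-1* at ZT22, a single spot reached 8610 scaled units and was marked as an outlier by the scanner software. The other 9 spots of that probe lay between -2.61 and 3.67 units, and 0 of them were well above background.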
